A study of Mus musculus with 12 samples.

Results

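Respiratory complex II, respiratory complex III and the mitochondrial ATP synthase were described gene by gene in mouse tumours that carry the EWSR1-ATF1 fusion of clear cell sarcoma, a soft tissue cancer, and in skeletal muscle. The members were the protein-coding genes whose symbols begin with Sdh (the succinate dehydrogenase subunits and their assembly factors), Uqcr, Uqcc or Atp5, together with Cyc1. This gave 38 of the 55536 genes in the count table: 8 for complex II, 12 for complex III and 18 for ATP synthase. A second gene identifier that carries the name Atp5o had no count in any of the 12 libraries, so 37 members were measured, 17 of them in ATP synthase, and all 37 passed the filter on low counts. Total RNA was sequenced after ribosomal RNA depletion with a strand-specific kit, and reads were counted per gene. The translocation tumours (n = 5) had the genotype HprtCre; Ewsr1-loxP; Atf1-loxP, in which Cre expressed from the Hprt locus recombines loxP sites in Ewsr1 and Atf1. The Rosa26 tumours (n = 6) had the genotype Rosa26-LSL-EWSR1-ATF1, a fusion transgene behind a stop cassette at the Rosa26 locus, and the label does not name the Cre used. The comparison tissue was skeletal muscle with the genotype label WT (n = 1). No group received a drug, all material was snap-frozen when the primary tumour caused morbidity, and the labels give no ages. The labels do not say that each sample came from its own animal: the titles of translocation tumours 2 and 5 share a number, as do those of translocation tumour 1 and the muscle, and the titles of Rosa26 tumours 5 and 6 differ in the last digit alone. So the p-values cover the variation among these libraries, which may be technical in part.

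Complex II oxidises succinate in the citric acid cycle and passes the electrons to ubiquinone in the inner mitochondrial membrane. Complex III takes electrons from ubiquinol, hands them to cytochrome c and pumps protons, and ATP synthase lets protons return through a rotating ring of c subunits to drive ATP synthesis. Skeletal muscle is rich in mitochondria and holds these complexes at high levels. Complex II is encoded by nuclear genes alone, whereas complex III and ATP synthase each also contain subunits encoded by mitochondrial DNA.

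Library totals ran from 2963088 to 21248636 counts in the translocation tumours and from 6817005 to 21493629 in the Rosa26 tumours, and the muscle library had 25037628. Genes made of ribosomal sequence took 1.34% to 7.38% of the counts of most tumours, but 37.8% in translocation tumour 2 and 30.0% in Rosa26 tumour 4. The 20 skeletal muscle markers took 23.4% of the counts of the muscle library and 10.2% of Rosa26 tumour 1, but at most 0.619% of any other tumour. The 8 melanocyte markers, genes of the lineage whose features clear cell sarcoma shows, summed to 47.5 to 533 CPM in translocation tumours and 29.6 to 70.9 in Rosa26 tumours (CPM are counts normalised to library size, on 1 scale over the 12 libraries), with 78.0 in muscle and a median log2 fold change of 1.46 between genotypes, none of 4 called. Mitf and S100b had counts in every tumour. Dct reached 300.1 CPM in translocation tumour 5 but had no count in translocation tumours 2, 3 and 4. Over the 11 tumours Pmel had 330 counts, Sox10 31, Tyr 3 and Tyrp1 2, and Mlana had none. Xist and Y-linked genes read 4 translocation tumours as female and 1 as male (tumour 5), and 2 Rosa26 tumours as female and 4 as male. Atf1, a gene of the engineered locus, had a log2 fold change of 1.15 between translocation and Rosa26 tumours (edgeR adjusted p = 0.0274), and that of Ewsr1 was 0.09. In bulk tissue, fewer cells of a type and less RNA per cell cannot be told apart.

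Between the tumour genotypes, the log2 fold change was above 0 for all 37 members, where 53.2% of all genes tested were above 0, and 8 members rose in translocation tumours. These were Sdhd of complex II, Uqcr10, Uqcrq, Uqcrh, Uqcr11 and Cyc1 of complex III, and Atp5h and Atp5mpl of ATP synthase, by 1.55 to 2.43 on the log2 scale. None fell. With the like-titled tumours summed (translocation 2 with 5, Rosa26 5 with 6), 7 of the 8 calls were lost and Uqcr10 remained (edgeR adjusted p = 0.0364), where 0.231% of all genes were called higher. Calls were made at an adjusted p of 0.05 with the quasi-likelihood test of edgeR over 17021 genes, of which 1.14% were called higher and 2.70% in either direction. The median log2 fold change of the members was 1.09, against 0.07 over all genes tested. By complex the median was 0.96 for complex II (1 of 8 called), 1.07 for complex III (5 of 12) and 1.31 for ATP synthase (2 of 17). At an unadjusted p below 0.05 the number of members was 29, all higher in translocation tumours. The share of all genes at that unadjusted threshold was not counted, so this number has no background to be set against. In 11 members every translocation tumour lay above every Rosa26 tumour, a pattern that 2.20% of all genes tested showed in that direction and 5.32% in either. These 11 were 2 genes of complex II, 5 of complex III and 4 of ATP synthase.

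**Figure D1:**
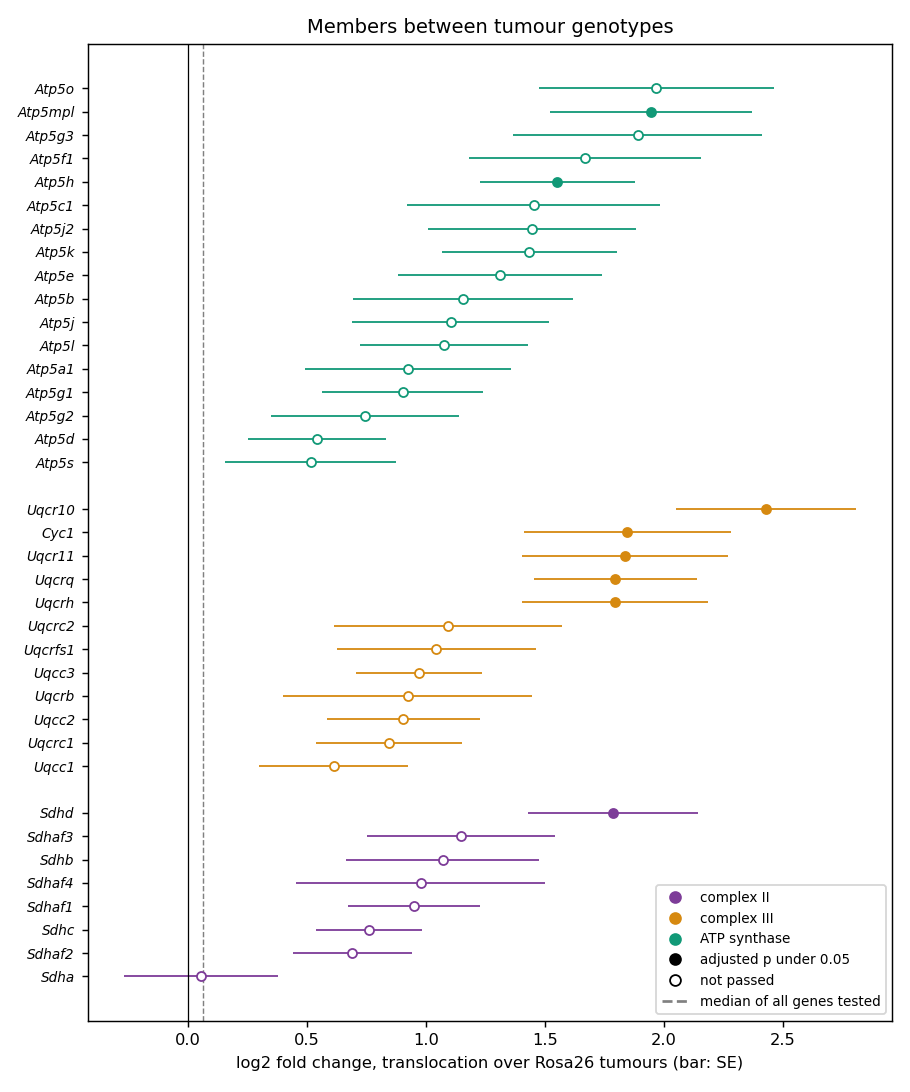
Log2 fold change of each of the 37 members, translocation over Rosa26 tumours, on the horizontal axis, with bars for the standard error, colours for the complex and filled points for an adjusted p under 0.05. All points lie to the right of 0, from Sdha at 0.06 to Uqcr10 at 2.43, and the dashed line marks the median of all genes tested, 0.07.

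Transcript length and single libraries moved with this difference. Among protein-coding genes other than the members, the median log2 fold change was 1.07 where the longest transcript was under 1000 bases, 0.51 from 1000 to under 2000 bases, 0.14 from 2000 to under 4000 bases and -0.22 at 4000 bases or more. The members in the same 4 classes had medians of 1.49 (14 genes, 5 called), 1.16 (11 genes, 3 called), 0.85 (9 genes, none called) and 1.08 (3 genes, none called). In each class the members' median was thus above that of the other genes, and every called member had a longest transcript under 2000 bases, where 9.14% (shortest class) and 2.30% of protein-coding genes were called higher. These lengths count transcripts of any type, and some members have a far shorter longest protein-coding transcript. It has 544 bases against 6310 for Atp5l, 955 against 2101 for Atp5j2, 1604 against 2527 for Atp5f1 and 421 against 1697 for Atp5e. Such members would change class by that length, and the medians were not taken again, so the excess over other genes depends on the length used. With the length trend removed within each library, an alternative chosen after seeing the data, 0.552% of all genes and 2 members were called higher: Uqcr10 at 1.91 (edgeR adjusted p = 0.0166) and Uqcrq at 1.57 (edgeR adjusted p = 0.0413). The 3 medians were then 0.81, 0.91 and 1.15, beside 0.13 for all genes, and all 37 members stayed above 0.

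**Figure D2:**
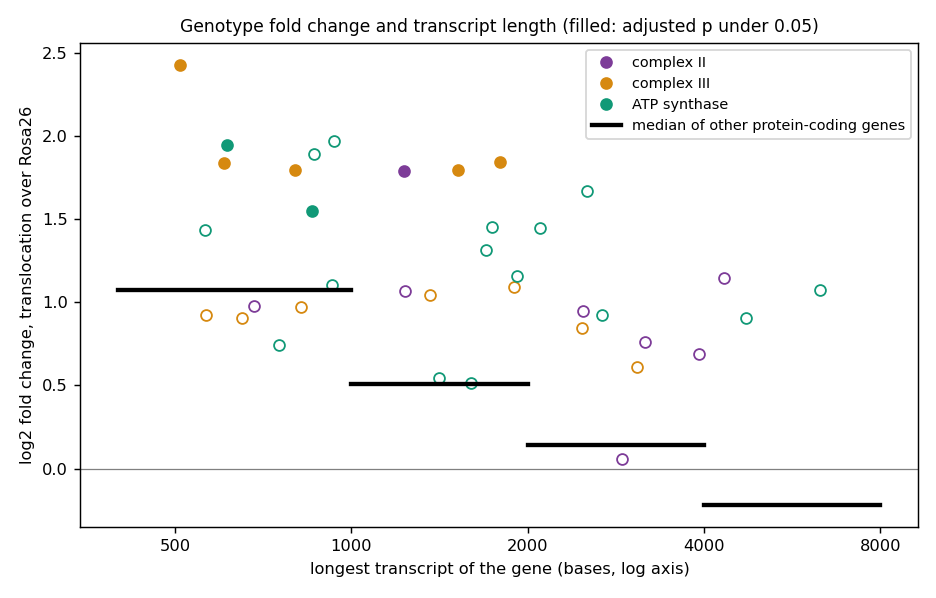
Log2 fold change of each member (vertical axis, translocation over Rosa26 tumours) against the length of its longest annotated transcript in bases (horizontal log axis), with filled points for an adjusted p under 0.05 and bars for the median of other protein-coding genes in 4 length classes. The bars step down from 1.07 to -0.22, and 31 of the 37 members lie above the bar of their class. Lengths count transcripts of any type, coding or not.

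Translocation tumour 5 was the highest of the 11 tumours for 30 of 37 members, and Rosa26 tumour 4 was the lowest for 30 of 37. The members together took 1.40% of the counts of translocation tumour 5, 0.364% to 0.653% of the other translocation tumours, 0.123% of Rosa26 tumour 4 and 0.314% to 0.450% of the other Rosa26 tumours. Without translocation tumour 5 alone the medians of complexes II, III and ATP synthase were 0.69, 0.91 and 0.90, and 7 members were called, against 1.68% of all genes higher. With translocation tumour 2 and Rosa26 tumour 4 left out as well they were 0.67, 0.78 and 0.88, with 5 members called, 3 of them among the 8, against 281 of 17921 genes (1.57%) called higher. Only 1 member, Uqcr10, was called when translocation tumour 1 or Rosa26 tumour 3, 5 or 6 was left out (0.201%, 0.0900%, 0.221% and 0.114% of all genes higher), and 3 members when Rosa26 tumour 4 was left out (0.557%). Uqcr10 remained called in all 11 fits that left out a tumour and in every other alternative tried for this comparison.

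In complex II, the membrane anchor gene Sdhd rose in translocation tumours, and the catalytic gene Sdha had group means of 149 and 148 CPM in translocation and Rosa26 tumours. The difference between the 2 genes was not tested. Sdhd encodes one of the membrane anchors that bind ubiquinone. Its level was 239.7, 233, 181, 159 and 490.1 CPM in translocation tumours 1 to 5, 43.9 to 113 with a median of 68.3 in the 6 Rosa26 tumours, and 381 in muscle. The groups did not overlap, and translocation tumour 5 stood above muscle. The log2 fold change was 1.79 ± 0.36 (SE), with an edgeR adjusted p of 0.0283, and the call was lost without translocation tumour 1 or Rosa26 tumour 3, 5 or 6, with the like-titled tumours summed (edgeR adjusted p = 0.0696) and with the length trend removed (edgeR adjusted p = 0.0572). Sdha encodes the flavoprotein that oxidises succinate. Sdha stood at 131, 95.01, 192, 133 and 194 CPM in the translocation tumours and at 58.8 to 221 with a median of 152 in the Rosa26 tumours. Its groups overlapped over most of their range, its log2 fold change was 0.06 ± 0.32 (edgeR adjusted p = 0.934), and its sign turned in 5 of the alternatives. The highest Rosa26 value of Sdha was that of tumour 1, where skeletal muscle markers took 10.2% of the counts. The log2 fold change of Sdha was 0.20 without that tumour and 0.22 with the skeletal muscle level as a covariate, not called in either fit. The ratio of Sdhd to Sdha counts, looked at after these values were seen and not tested, was 1.84, 2.45, 0.945, 1.19 and 2.52 in the translocation tumours, 0.385 to 0.845 in the Rosa26 tumours and 0.415 in muscle. Sdhd and Sdha lie in the length classes where other protein-coding genes had a median of 0.51 and 0.14 between genotypes. The part of length in this ratio was not tested.

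The other anchor gene, Sdhc, also separated the groups without passing the test, with 75.7, 120.0, 81.6, 84.8 and 143 CPM in translocation tumours and 54.3 to 72.9 with a median of 59.8 in Rosa26 tumours (log2 fold change 0.76 ± 0.22, edgeR adjusted p = 0.0743). Sdhb, the iron-sulfur subunit that carries electrons from Sdha to the anchors, reached 67.3, 53.4, 74.5, 74.5 and 233 CPM in translocation tumours and 25.7 to 82.4 with a median of 45.9 in Rosa26 tumours. Its groups overlapped, since Rosa26 tumour 1 lay above all translocation tumours but tumour 5, and its log2 fold change was 1.07 ± 0.41 (edgeR adjusted p = 0.136). None of the 4 assembly factors passed the test. Sdhaf2, which helps attach the flavin to Sdha, gave 0.69, Sdhaf1 and Sdhaf3, which protect the iron-sulfur clusters of Sdhb, gave 0.95 and 1.15, and Sdhaf4 gave 0.98 on the log2 scale. Sdhaf1 had 13.9 ± 3.48 CPM (SD, n = 5) in translocation tumours and 7.403 ± 1.498 (SD, n = 6) in Rosa26 tumours.

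Promoters are shown for the complex II genes with the largest and the smallest log2 fold change between genotypes, Sdhd and Sdha. Also shown are those of the complex III genes Uqcr10, with the largest fold change between genotypes, and Uqcrh, which was also called. The sequences are from RefSeq's annotation of GRCm38.p6, the build of mm10, on the minus strand and 5′ to 3′, and end at the annotated gene start or shortly before it. They lie at chr9:50603850-50604099, chr13:74350281-74350490, chr11:4704345-4704594 and chr4:116075072-116075320. Capitals mark matches, on either strand, to 2 of the 4 motifs searched: the NRF1 motif, whose letters are the capitals in Sdha, with any base at its sixth position, and CCGGAAG for GABPA. Both factors regulate nuclear genes for mitochondrial proteins, and no match of one overlapped the other here.
Sdhd: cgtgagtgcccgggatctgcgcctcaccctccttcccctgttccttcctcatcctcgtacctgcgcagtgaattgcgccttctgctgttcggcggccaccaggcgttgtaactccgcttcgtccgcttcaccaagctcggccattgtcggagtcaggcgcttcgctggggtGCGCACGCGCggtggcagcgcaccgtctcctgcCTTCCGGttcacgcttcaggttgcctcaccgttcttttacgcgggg
Sdha: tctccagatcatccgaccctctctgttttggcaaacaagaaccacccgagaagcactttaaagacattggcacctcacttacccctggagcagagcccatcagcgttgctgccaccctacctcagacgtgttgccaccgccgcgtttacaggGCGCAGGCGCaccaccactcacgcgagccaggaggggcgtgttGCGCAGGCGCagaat
Uqcr10: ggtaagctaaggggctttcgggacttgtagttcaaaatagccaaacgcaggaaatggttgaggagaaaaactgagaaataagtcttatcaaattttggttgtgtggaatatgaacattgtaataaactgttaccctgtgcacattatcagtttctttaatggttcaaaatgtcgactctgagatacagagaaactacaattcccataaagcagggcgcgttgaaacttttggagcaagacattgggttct
Uqcrh: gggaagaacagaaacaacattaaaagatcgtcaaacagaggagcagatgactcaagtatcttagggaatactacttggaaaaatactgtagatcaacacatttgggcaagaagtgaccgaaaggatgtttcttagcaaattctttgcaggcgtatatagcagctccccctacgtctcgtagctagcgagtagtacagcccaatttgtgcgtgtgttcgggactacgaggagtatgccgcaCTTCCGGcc
Sdhd held both motifs, Sdha held the NRF1 motif at 2 places, Uqcrh held the GABPA motif and Uqcr10 held neither. Among the 30 members matched in the promoter table, the NRF1 motif lay within 250 bases before the start in 7 (23.3%), against 3.74% of 32851 promoters, and the GABPA motif in 9 (30.0%), against 6.91%. The ERR half-site TCAAGGTCA was found in Atp5g3 alone, which is 3.33% of the members against 0.387% of promoters, and the YY1 motif in Atp5j alone (3.33% against 0.301%). In these shares the members were counted as genes, some of which have more than 1 promoter, and the background was counted as promoters. The 2 shares are therefore not on the same unit, and their difference was not tested. The messenger RNAs of Nrf1 and Gabpa gave log2 fold changes of 0.27 and 0.26 and did not pass the test.

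In complex III, 4 of the 5 genes for small accessory subunits and the gene for cytochrome c1 rose in translocation tumours. The 5 small subunit genes had a median log2 fold change of 1.80. Among the 4 genes for core proteins, cytochrome c1 and the Rieske protein 1 was called, with a median of 1.07. None of the 3 assembly factors was called (median 0.91). Of all genes tested 1.14% were called higher. The small subunit genes other than Uqcrq have a longest transcript under 1000 bases, where other protein-coding genes had a median of 1.07. The core, cytochrome c1 and Rieske genes lie in the length classes where that median was 0.51 or 0.14. The part of length in this contrast was not tested. Uqcr10, a small subunit beside cytochrome c1 in the complex, had 226, 130.5, 129, 136 and 327 CPM in the translocation tumours, 17.7 to 59.7 with a median of 30.5 in the Rosa26 tumours and 470.2 in muscle. The lowest translocation tumour was thus above the highest Rosa26 tumour, and both groups lay below muscle. Its log2 fold change of 2.43 ± 0.38 (edgeR adjusted p = 0.0117) was the largest among the members and ranged from 2.14 to 2.63 when each tumour was left out in turn.

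Uqcrh, the hinge protein through which cytochrome c1 meets cytochrome c, was measured at 605, 658, 313, 352 and 604 CPM in translocation tumours, 83.8 to 296 with a median of 129.5 in Rosa26 tumours and 654 in muscle. Translocation tumours 1, 2 and 5 came near the muscle level, and no Rosa26 tumour reached the lowest translocation tumour. The log2 fold change was 1.79 ± 0.39 (edgeR adjusted p = 0.0368). Uqcrq, a small membrane subunit next to cytochrome b, stood at 104, 98.1, 49.98, 55.7 and 114 CPM against 17.3 to 45.5 with a median of 19.2 in Rosa26 tumours, without overlap (log2 fold change 1.80 ± 0.34, edgeR adjusted p = 0.0256). Uqcr11, another small accessory subunit, stood at 131, 123, 109, 86.9 and 273 CPM against 12.8 to 73.95 with a median of 35.4, again without overlap (log2 fold change 1.84 ± 0.43, edgeR adjusted p = 0.0466). Cyc1, cytochrome c1 itself, was at 119, 113, 136, 73.5 and 463 CPM in translocation tumours and at 39.7 to 67.3 with a median of 48.8 in Rosa26 tumours, so that translocation tumour 4 only just cleared the highest Rosa26 tumour. Its log2 fold change of 1.85 ± 0.44 had an edgeR adjusted p of 0.0466. Leaving out single tumours kept the call of Cyc1 in 3 of 11 fits, of Uqcr11 in 2, of Uqcrh in 5 and of Uqcrq in 7. All 4 calls were lost with the like-titled tumours summed, and those of Cyc1, Uqcr11 and Uqcrh also with the length trend removed.

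The remaining complex III genes overlapped between groups and did not pass the test. Uqcrc1 and Uqcrc2, the large core proteins on the matrix side, had 157 ± 68.1 and 188 ± 122 CPM (SD, n = 5) in translocation tumours and 90.3 ± 28.2 and 90.8 ± 39.5 (SD, n = 6) in Rosa26 tumours. Uqcrfs1, the Rieske iron-sulfur protein, had 118 ± 83.9 CPM (SD, n = 5) against 59.2 ± 23.3 (SD, n = 6). In all 3 genes translocation tumour 5 held the highest value of the 11 tumours, at 276, 386 and 265 CPM. Uqcrb, the fifth small subunit, gave a log2 fold change of 0.92 ± 0.52 (edgeR adjusted p = 0.295). The assembly factors Uqcc1, Uqcc2 and Uqcc3, which act on newly made cytochrome b, gave 0.61, 0.91 and 0.97. Cytochrome b itself is encoded by the mitochondrial gene mt-Cytb, whose log2 fold change was 0.30 ± 0.51 (SE, edgeR adjusted p = 0.758), with a mean of 1436 ± 507.5 CPM (SD, n = 5) in translocation tumours and 1205 ± 752 CPM (SD, n = 6) in Rosa26 tumours.

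**Figure D3:**
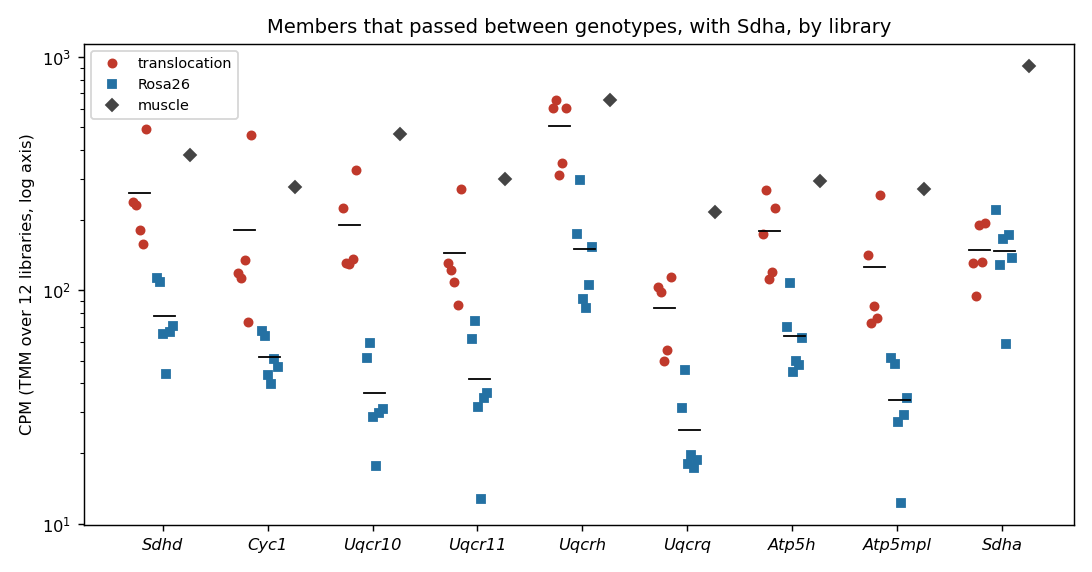
CPM (vertical log axis, TMM scale over 12 libraries) of the 8 members that passed the genotype test, and of Sdha, in each library, with horizontal bars for the group means. Red points (translocation) lie above all blue squares (Rosa26) for the 8 called members, and the 2 sets overlap for Sdha, where the muscle diamond stands far above both.

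In ATP synthase, 1 gene of the peripheral stalk and 1 of the membrane part rose in translocation tumours, and no gene of the catalytic head passed the test. The 8 stalk and membrane genes had a median log2 fold change of 1.50, with 2 called, the 5 head and rotor genes of the F1 part a median of 1.16, with none called, and the 3 genes for subunit c a median of 0.90, with none called. Atp5h, Atp5j, Atp5o, Atp5k and Atp5mpl of the stalk and membrane genes have a longest transcript under 1000 bases, where other protein-coding genes had a median of 1.07. No F1 gene is in that class by its longest transcript of any type. By the longest protein-coding transcript, the F1 gene Atp5e has 421 bases, and Atp5l and Atp5j2 of the stalk and membrane genes have 544 and 955. The part of length in this contrast was not tested. Atp5h, subunit d of the peripheral stalk, stood at 175, 270.1, 112, 120.5 and 225 CPM in translocation tumours, 44.7 to 107.3 with a median of 56.2 in Rosa26 tumours and 295 in muscle. The highest Rosa26 tumour came close to the lowest translocation tumour without reaching it, and the log2 fold change was 1.55 ± 0.33 (edgeR adjusted p = 0.0321). Atp5mpl, a small proteolipid of the membrane part, stood at 141, 72.2, 85.9, 76.02 and 256 CPM in translocation tumours against 12.2 to 51.3 with a median of 31.8 in Rosa26 tumours and 272 in muscle. Its groups did not overlap, and its log2 fold change was 1.95 ± 0.42 (edgeR adjusted p = 0.0368). Both calls were kept in 6 of the 11 fits without a tumour and lost without translocation tumour 1 or Rosa26 tumour 3, 4, 5 or 6, with the like-titled tumours summed and with the length trend removed.

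Atp5o, the protein that joins the stalk to the head, and Atp5k, subunit e of the membrane part, separated the groups but missed the threshold, at 1.97 ± 0.49 (edgeR adjusted p = 0.0535) and 1.44 ± 0.37 (edgeR adjusted p = 0.0572). The other stalk and membrane genes overlapped between groups: Atp5f1 (subunit b) gave 1.67, Atp5j (factor F6) 1.10, Atp5j2 (subunit f) 1.45 and Atp5l (subunit g) 1.08. In the catalytic head, Atp5b, the beta subunit that makes ATP, ran at 819, 689, 1135, 793 and 3114 CPM in translocation tumours and 261 to 747 with a median of 665 in Rosa26 tumours. Atp5a1, the alpha subunit, ran at 470.5, 504, 572, 486 and 2003 CPM and 288 to 525 with a median of 442. For Atp5b every translocation tumour but tumour 2 lay above all Rosa26 tumours, for Atp5a1 tumours 3 and 5 did, and for both genes translocation tumour 5 stood far above the rest. Their log2 fold changes were 1.16 ± 0.46 and 0.93 ± 0.43, with edgeR adjusted p of 0.149 and 0.207. The central stalk genes Atp5c1 (gamma), Atp5d (delta) and Atp5e (epsilon) gave 1.45, 0.54 and 1.31, and Atp5s, a coupling factor, gave 0.52.

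Subunit c of the rotor ring is made from 3 genes, Atp5g1, Atp5g2 and Atp5g3, whose mature proteins are the same. Per base of exon, Atp5g3 took most of the subunit c signal in every library: 85.0%, 64.7%, 81.1%, 78.6% and 86.8% in translocation tumours 1 to 5, 53.2% to 72.7% in the Rosa26 tumours and 58.4% in muscle. Atp5g1 took 8.12% to 22.1% in translocation tumours, 13.5% to 25.9% in Rosa26 tumours and 32.9% in muscle, the highest share of any library. Atp5g2 took 3.76% to 13.2% in translocation tumours, 8.26% to 20.9% in Rosa26 tumours and 8.70% in muscle. The mean share of Atp5g3 was 79.2 ± 8.75% (SD, n = 5) in translocation tumours and 68.5 ± 7.56% (SD, n = 6) in Rosa26 tumours, a difference of 10.7 percentage points. In a two-sided exact permutation test over the 11 tumours this gave p = 0.0455, and 0.101 after Benjamini-Hochberg adjustment over the 3 shares. Atp5g1 and Atp5g2 differed by -5.37 points each (exact permutation p = 0.106 and 0.0671, adjusted 0.106 and 0.101), where 0.00216 is the smallest p that the 462 splits allow. None of the 3 shares passed the test as planned. All 3 passed it without translocation tumour 2 and with the like-titled tumours summed (adjusted exact permutation p = 0.0238, 0.0476 and 0.0238 for Atp5g1, Atp5g2 and Atp5g3 with summed tumours). The longest annotated transcript of Atp5g1 is 4715 bases, against 753 and 862 for Atp5g2 and Atp5g3, and with lengths left out Atp5g1 held 53.3% of the subunit c counts in muscle, 25.1% in translocation tumours and 34.2% in Rosa26 tumours.

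**Figure D4:**
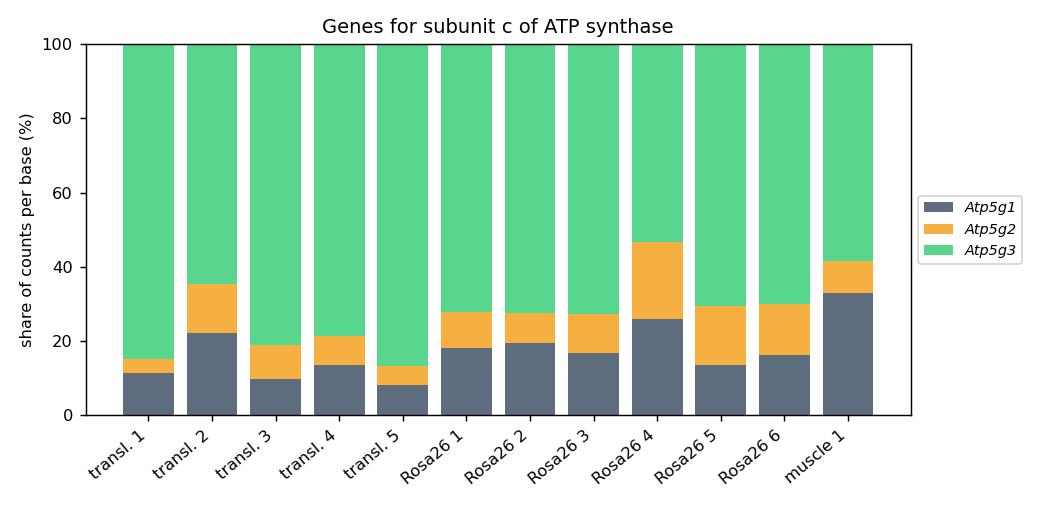
Share of subunit c counts per base of exon (vertical axis, percent) taken by Atp5g1, Atp5g2 and Atp5g3 in each of the 12 libraries. Atp5g3 fills most of every bar, from 53.2% in Rosa26 tumour 4 to 86.8% in translocation tumour 5, and the Atp5g1 part is largest in muscle at 32.9%.

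Against muscle, 27 of the 37 members fell in tumours and none rose. The log2 fold change of the mean of both tumour groups over muscle was below 0 for all 37, where 38.3% of all genes tested were below 0. The calls were 4 of 8 in complex II, 9 of 12 in complex III and 14 of 17 in ATP synthase. A call required an edgeR adjusted p below 0.05 together with a fold change of 1 or more on the log2 scale, which 11.4% of 22184 genes met as lower and 5.25% as higher. There was 1 muscle library, so the test takes its spread from the tumours and assumes that muscle varies like them. The median log2 fold change was -1.58 for complex II, -2.24 for complex III and -2.14 for ATP synthase, beside 0.70 for all genes tested. Every tumour lay below muscle for 32 members (19.6% of all genes tested), namely 7 of complex II, 10 of complex III and 15 of ATP synthase. The exceptions were Sdhd, Cyc1, Uqcrh, Atp5g3 and Atp5o, each with 1 translocation tumour above muscle.

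These folds depend on how muscle is scaled to the tumours. With library totals in place of TMM factors the medians were -0.18, -0.83 and -0.70, 1 member was called lower (2.62% of all genes), and 5 members had a log2 fold change above 0. The median of all genes then moved to 2.10, and the split of calls over all genes from 1165 higher and 2521 lower to 3508 higher and 582 lower. Relative to the median of all genes the 3 complexes stood at -2.29, -2.95 and -2.84 with TMM factors, and the members as a whole at -2.83 with TMM factors and -2.78 with library totals. As a plain share of counts, the members took 0.850% of the muscle library, above all tumours other than translocation tumour 5.

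By library, the median member of complex II stood at 34.2% to 38.5% of its muscle CPM in translocation tumours 1 to 4, at 74.7% in translocation tumour 5 and at 10.1% to 28.1% in the Rosa26 tumours. For complex III these values were 25.3% to 29.5%, 60.2% and 7.35% to 20.9%, and for ATP synthase 21.2% to 25.7%, 66.3% and 5.76% to 18.9%. Rosa26 tumour 4 was the lowest for each complex, and Rosa26 tumours 1 and 2 were the highest of their group. The translocation tumours alone gave 8 members called lower than muscle (8.46% of all genes) and the Rosa26 tumours alone 36 (10.5% of all genes), all but Sdhaf4. Both comparisons use the same muscle library, and the medians were -1.07, -1.54 and -1.56 for translocation tumours and -2.20, -2.87 and -2.93 for Rosa26 tumours. Without translocation tumours 2 and 5 and Rosa26 tumours 1 and 4, a choice made after seeing the data, 35 members were called lower, and the share of all genes called lower was 19.8%, against 11.4% with all tumours.

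**Figure D5:**
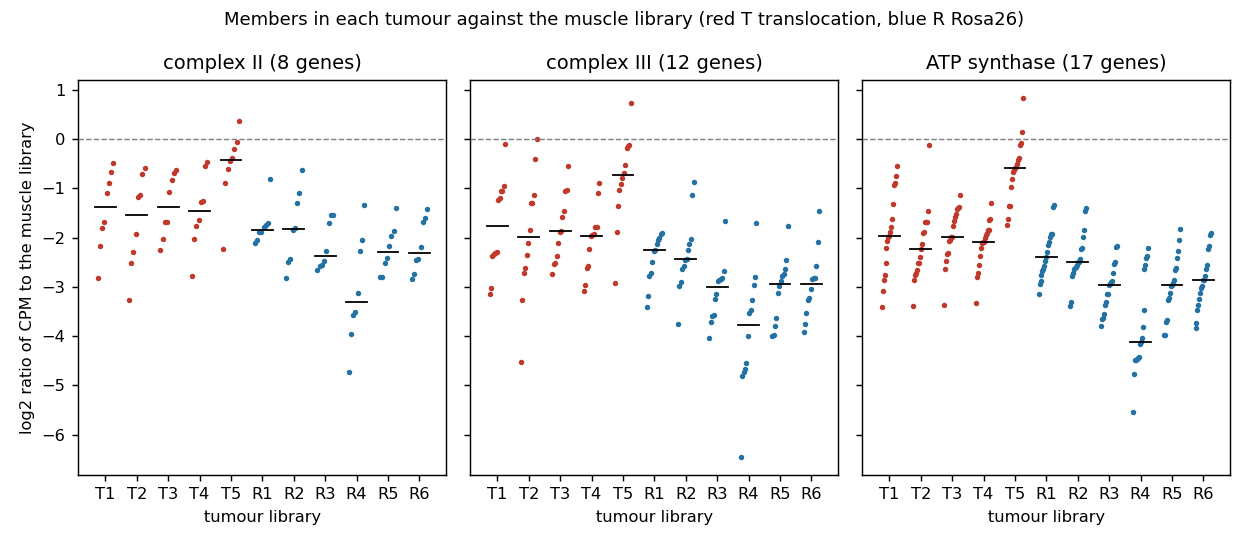
Log2 ratio of each member's CPM to its CPM in muscle (vertical axis), 1 point per gene, for each of the 11 tumours (horizontal axis) and each complex, with bars for the median. Medians lie below 0 in every tumour, nearest to it in translocation tumour 5 and farthest in Rosa26 tumour 4.

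In complex II the catalytic gene Sdha fell most, from 919 CPM in muscle to 149 ± 42.97 (SD, n = 5) in translocation tumours and 148 ± 54.1 (SD, n = 6) in Rosa26 tumours. This was a log2 fold change of -2.63 ± 0.45 (edgeR adjusted p = 0.00229), and the group means stood at 16.2% and 16.1% of muscle. Sdhb, at 305 CPM in muscle, gave -2.11 ± 0.58 (edgeR adjusted p = 0.02704). Sdhc, at 264 CPM in muscle, gave -1.75 ± 0.33 (edgeR adjusted p = 0.00393). Sdhd was not called (-1.42 ± 0.53, edgeR adjusted p = 0.0882), with group means at 68.3% and 20.5% of muscle. Among the assembly factors only Sdhaf3 was called (-1.97, edgeR adjusted p = 0.0312), and Sdhaf1, Sdhaf2 and Sdhaf4 gave -1.06, -1.07 and -1.21.

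In complex III the largest differences from muscle were those of the small subunit Uqcrb and the assembly factor Uqcc2. Uqcrb stood at 352 CPM in muscle, 43.2, 15.3, 52.8, 44.8 and 94.5 in translocation tumours and 4.02 to 53.2 with a median of 26.03 in Rosa26 tumours, a log2 fold change of -3.25 ± 0.68 (edgeR adjusted p = 0.00696). Uqcc2 stood at 492 CPM in muscle, 97.6, 74.4, 86.4, 82.9 and 64.8 in translocation tumours and 19.4 to 82.2 with a median of 41.6 in Rosa26 tumours, a log2 fold change of -3.03 ± 0.43 (edgeR adjusted p = 6.43e-04). No tumour of either group came near muscle for these genes. The core genes Uqcrc1, Uqcrc2 and Uqcrfs1, at 564, 619.5 and 457 CPM in muscle, also fell, with log2 fold changes of -2.24, -2.24 and -2.45. Cyc1 (-1.52), Uqcrh (-1.24) and Uqcc3 (-1.06) were not called, although Uqcr10 (-2.50), Uqcr11 (-1.95) and Uqcrq (-2.23) were.

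In ATP synthase, all 5 genes of the head and central stalk fell. Atp5c1, the gamma subunit that turns inside the head, stood at 1236 CPM in muscle, 169.7, 119, 198, 178 and 707 in translocation tumours and 26.6 to 192 with a median of 95.9 in Rosa26 tumours, a log2 fold change of -2.87 ± 0.71 (edgeR adjusted p = 0.0162). Atp5b and Atp5a1, at 4695 and 3201 CPM in muscle, gave -2.40 ± 0.65 and -2.43 ± 0.60 (edgeR adjusted p = 0.0253 and 0.01702). Atp5g1 showed the largest difference of the complex. It stood at 468 CPM in muscle, 43.9, 64.4, 45.1, 46.8 and 139 in translocation tumours and 28.5 to 52.9 with a median of 33.2 in Rosa26 tumours (-3.22 ± 0.44, edgeR adjusted p = 5.36e-04). Atp5g2 gave -1.91 ± 0.57 (edgeR adjusted p = 0.0377), and Atp5g3, with 147, 83.6, 169, 119.8 and 658 CPM in translocation tumours, 26.1 to 92.9 with a median of 66.96 in Rosa26 tumours and 369 in muscle, gave -1.57 ± 0.76 and was not called. Of the 8 stalk and membrane genes 6 fell, and Atp5h (-1.46) and Atp5f1 (-2.12) missed the threshold. Atpif1, the inhibitor that binds the head when the membrane potential drops and no member by its symbol, went the other way: it stood at 121 ± 35.97 CPM (SD, n = 5) in translocation tumours, 67.3 ± 33.1 (SD, n = 6) in Rosa26 tumours and 25.00 in muscle. All 11 tumours lay above muscle, and the difference of 1.85 ± 0.66 did not pass (edgeR adjusted p = 0.0767).

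Levels of different genes were compared per kilobase, and the order of the first ones depended on the length used. Per kilobase of all exons, Uqcrh was highest in translocation tumours at 409 CPM, followed by Uqcr10 at 325, Atp5b at 309 and Atp5a1 at 257. Per kilobase of the longest transcript Atp5b came first at 684, ahead of Uqcrh at 632, Uqcr10 at 372 and Atp5a1 at 302. In Rosa26 tumours Atp5b was first by either length (143 and 316), and the second was Atp5a1 by all exons (139.7, with Uqcrh at 122) but Uqcrh by the longest transcript (189, with Atp5a1 at 164). In muscle Atp5b, Atp5a1 and Uqcr10 were the first in this order by either length, at 1108, 1021 and 805 by all exons. At the low end stood Sdhaf3 at 1.87 in translocation tumours and Atp5s at 2.78 by all exons. The median member stood at 57.2 in translocation tumours, 27.8 in Rosa26 tumours and 169 CPM per kilobase of exon in muscle. Within complex II, Sdhd per kilobase of exon exceeded Sdha in translocation tumours (212 against 36.1), in Rosa26 tumours (63.4 against 35.8) and in muscle (309.8 against 223). By the longest transcript the order held in both tumour groups and turned in muscle, where Sdha had 317 and Sdhd 309.8.

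Other nuclear genes of mitochondrial metabolism were counted by list. Over all genes tested, 1.14% were called higher between genotypes, with a median log2 fold change of 0.07. Against muscle 11.4% of all genes were called lower and 5.25% higher, with a median of 0.70. Of 36 complex I subunit genes 5 rose in translocation tumours and none fell (median log2 fold change 1.29), and against muscle 30 fell (median -2.38). Ndufb6 and Ndufa7, accessory subunits of complex I, had the smallest p between genotypes, at 1.98 and 1.55, and the others called, named after their values were seen, were Ndufb7, Ndufb10 and Ndufv3. Of 14 complex IV genes tested between genotypes 5 rose and none fell (median 1.44), and against muscle 11 of 16 fell and 2 rose (median -2.13). Cox6b2, a form of a complex IV subunit known from testis, and Cox4i1 had the smallest p between genotypes, at 3.28 and 1.75. The others called between genotypes, Cox6a1, Cox6b1 and Cox8a, and the risers against muscle, Cox6a1 and Cox6b2, were likewise named after their values were seen. Of 13 citric acid cycle genes none was called between genotypes (median 0.67) and 10 fell against muscle (median -2.28). Of 8 genes for the cristae-shaping MICOS complex and its partners 1, 2410015M20Rik (named Micos13 in newer annotation), rose between genotypes (median 1.06) and 4 fell against muscle (median -1.70). Of 13 genes for cytochrome c and coenzyme Q synthesis none was called between genotypes (median 0.57) and 6 fell against muscle (median -0.98). Of 8 assembly factors outside the member rule none was called between genotypes (median 0.73) and 2 fell against muscle (median -1.36). Of 11 regulators of mitochondrial gene expression tested none was called between genotypes (median 0.26), and 4 of 12 fell against muscle (median -1.14).

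The mitochondrially encoded partners could be read in part. mt-Cytb had a log2 fold change of -3.65 against muscle (edgeR adjusted p = 0.00344), from 16510.4 CPM to group means at 8.69% and 7.30% of muscle. mt-Atp6 and mt-Atp8, the mitochondrial subunits of ATP synthase, had 126 and 36 counts over the 12 libraries, against 437839 for mt-Cytb. mt-Atp6 shares 678 of its 681 bases with the nuclear copy Gm10925, so its reads cannot be told apart from those of that copy. Usmg5, a membrane subunit of ATP synthase whose symbol in the annotation does not begin with Atp5, gave 2.13 between genotypes (edgeR adjusted p = 0.0712) and -2.61 against muscle.

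Other cell types were read beside these results from their markers. The summed CPM of 20 skeletal muscle markers ran from 49.99 to 8032 in translocation tumours, from 107.1 to 5095 in Rosa26 tumours other than tumour 1, which had 85626, and was 571875 in muscle. Of the 18 that could be tested none was called between genotypes, and their median log2 fold change was -2.97, lower in translocation tumours. The 8 slow or oxidative fibre markers ran from 6.84 to 83.2 CPM in translocation tumours and from 2.62 to 469.8 in Rosa26 tumours (Rosa26 tumour 1 the highest), against 4390.1 in muscle. The 6 erythroid markers ran from 148.1 to 11233 CPM in translocation tumours and from 2.62 to 1003 in Rosa26 tumours, with a median log2 fold change of 3.88 and none of 5 called. The 8 fibroblast markers ran from 217 to 22043 CPM and from 5408 to 98453, and the 12 macrophage markers from 636 to 3538 and from 938 to 2710, with none called in either list. Of the other marker lists, Cd3e among T and NK cell markers and Erg among endothelial markers were called lower in translocation tumours. The part of these cell types in the members' differences was not tested. With the skeletal muscle level as a covariate 4 members were called between genotypes (0.417% of all genes called higher), and with sex as a covariate 19, including all 8 (9.11%).

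The counts can mix members with genes that share their sequence. Of the 37 members 16 share at least 100 bases at 95% identity or more with transcripts of another gene, among them the called genes Atp5h (71.3% of its main transcript), Uqcr10 (43.8%) and Uqcr11 (38.4%), and also Atp5o (92.0%), Atp5l (86.8%) and Uqcrb (62.8%). Not all of these matches are copies: for Sdhaf1, Sdhaf4, Uqcrc2 and Atp5j the longest match is a gene that overlaps them on the other strand. Sdhaf2 matched 544 genes over 284 of its bases. The longest matches of Atp5h, Uqcr10 and Uqcr11 had 2, 170 and 188 counts over the 12 libraries, against 21872, 24182 and 19446 for the members. No such stretch was found for Sdhd, Cyc1, Uqcrh, Uqcrq, Atp5mpl, Sdha, Atp5a1 or Atp5b. In the GENCODE M21 annotation of GRCm38 the called genes lie at chr9:50596357-50603812 (Sdhd, ENSMUSG00000000171), chr11:4701973-4704342 (Uqcr10, ENSMUSG00000059534), chr11:53427922-53430831 (Uqcrq, ENSMUSG00000044894), chr4:116066965-116075071 (Uqcrh, ENSMUSG00000063882), chr10:80402997-80406830 (Uqcr11, ENSMUSG00000020163), chr15:76343523-76346260 (Cyc1, ENSMUSG00000022551), chr11:115415689-115419962 (Atp5h, ENSMUSG00000034566) and chr12:111961375-111966977 (Atp5mpl, ENSMUSG00000021290). Of the members 13 overlap a gene on the other strand, and whether the counting used strand was not stated in the notes used here.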

How the data were processed

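RNA from 5 translocation tumours, 6 Rosa26 tumours and 1 skeletal muscle was prepared with a strand-specific kit after ribosomal RNA depletion, per the labels' protocols. The authors deposited a table of whole-number counts per Ensembl gene for the 12 libraries, with no normalization. Per the submitters' processing notes the tools were STAR 2.7.5a, cutadapt, RSEM, featureCounts and DESeq2 on mm10, and which of them made the counts is not stated there. Identifiers were matched to GENCODE M21 symbols, and all 55536 were found. The members and lists were chosen with earlier results of these data known.

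From the deposited counts, the genotype comparison was fitted on the 11 tumours with edgeR 4.0.16 (TMM factors, filterByExpr with a minimum count of 10, robust quasi-likelihood test), and a second fit with all 12 libraries gave the contrast of muscle with the average of the 2 tumour groups. Benjamini-Hochberg adjustment ran over all genes tested with a threshold of 0.05, and calls against muscle also needed a log2 fold change of 1 or more in size. CPM are on the TMM scale of the 12 libraries, and fold changes come from the fits. Shares of subunit c were compared by exact permutation tests. Copies were found with blastn 2.17.0 against GENCODE M21 transcripts. Values are given per library for the main subunits, every member called between genotypes and, in each complex, the 2 members with the smallest p between genotypes and the 2 with the largest fold against muscle.

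Alternatives were DESeq2 1.42.0 size factors and Wald test, limma 3.58.1 voom with quality weights, other filters, library totals, ribosomal or muscle genes left out, covariates, like-titled tumours summed, each tumour left out and, chosen after seeing the data, a length trend removed and 4 libraries left out against muscle. On counts simulated for the genotype comparison with 16877 genes tested, 41.4% of genes changed by 1 on the log2 scale and 100.0% of those changed by 2 were called. On counts simulated for the muscle comparison with 20172 genes tested, these shares were 3.3% and 37.8%. The simulation gave every gene the same dispersion and held no length trend and no outlying library, so the shares need not hold for the real data. In the real genotype fit Usmg5, at 2.13, was not called (edgeR adjusted p = 0.0712). No replicate pair within a group agreed within sampling noise: the smallest median chi-square over genes was 4.31, where 0.455 is noise. Promoter sequences are RefSeq's for GRCm38.p6.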

Additional observations from a re-analysis of the deposited data

Results flagged for a closer look

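In 12 of 46 groups of libraries examined, 1 library lay far from the others of its group by Dixon's criterion, where chance gives about 1 in 20. In 11 of these the library was translocation tumour 5, always as the highest of its group: Sdhb at 233 CPM, Sdhd at 490.1, Cyc1 at 463, Uqcr11 at 273, Uqcrc1 at 276, Uqcrfs1 at 265, Atp5a1 at 2003, Atp5b at 3114, Atp5c1 at 707, Atp5g1 at 139 and Atp5g3 at 658. The last was Rosa26 tumour 4, the lowest of its group, with Atp5b at 261 CPM. These groups share libraries and are not independent of each other. Translocation tumour 5 was the only translocation tumour that Xist and Y-linked genes read as male, and Rosa26 tumour 4 had the largest ribosomal share of its group at 30.0%. Their part in these values was not tested.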

How the results depend on the processing

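Between genotypes 8 members were called. This number was 18 with the DESeq2 Wald test, 22 with limma voom and 19 with sex as a covariate. In the same settings 1257 of 36256, 1262 of 17021 and 1551 of 17021 genes were called higher. The number of members called was 4 with the muscle covariate, 5 when Rosa26 tumour 4 and translocation tumours 2 and 5 were left out, 2 with the length trend removed and 1 with the like-titled tumours summed. Leaving out each tumour gave 1 to 10. Over all genes, calls numbered 460, against 2584 with the Wald test, 2677 with voom, 2534 with sex, 141 with summed tumours, 236 with the muscle covariate, 258 with the length trend removed, 619 without the same 3 libraries and 63 to 744 without single tumours. No paired analysis was possible because the replicate numbers follow the order of deposit and pair no samples, and the number that the titles of translocation tumour 1 and the muscle share makes a single pair.

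Against muscle 27 members were called, 1 with library totals and 8 in translocation tumours alone, and 20 to 34 without single tumours (24 without translocation tumour 1). Over all genes 3686 were called, and 5987 without translocation tumour 5 or 7724 without the 4 libraries left out after seeing the data. The medians for complexes II, III and ATP synthase moved to -0.18, -0.83 and -0.70 with library totals and to -2.20, -2.87 and -2.93 in Rosa26 tumours alone, and those of complexes II and III to -1.07 and -1.54 in translocation tumours alone. The share of subunit c differed by -8.23 points for Atp5g1, -6.39 for Atp5g2 and 14.6 for Atp5g3 with summed tumours, and by -7.65 to -3.86, -6.72 to -3.82 and 7.68 to 14.4 without single tumours. Medians per kilobase were 88.7, 45.2 and 312 with the longest transcript as length.

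The sign of Sdha between genotypes turned to -0.0552 with voom and -0.0888 without the 3 libraries named above. Without single tumours it ran from -0.0860 to 0.201, below 0 without translocation tumour 3 or 5 or Rosa26 tumour 4. Against muscle with library totals, Sdhaf1 turned to 0.34 and Uqcrh to 0.15. Among values of the named genes and settings, 464 of 552 between genotypes and 428 of 504 against muscle kept their direction and their side of the threshold. The cause of these shifts was not tested. Depth was lowest in translocation tumour 2, with 2963088 counts.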
